A study of Rattus norvegicus with 18 samples.

Results

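The genes described here are the proteasome genes of rat pXEN cells, a cell line kept from blastocysts that resembles the precursor of the primitive endoderm, the tissue lining the yolk cavity of the early embryo. The set holds every gene whose symbol is Psm, a letter from a to g and a number, with pseudogenes left out. That rule found 49 of the 28695 genes in the count tables, and 45 of the 49 are known to encode a proteasome subunit, activator, inhibitor or assembly factor and had enough counts to be tested. The study grew 1 line, labelled rat XENP and of the female WKY strain, in 6 conditions and sequenced 3 libraries of each. Normal cells were the reference, and all 6 conditions were sampled between passages 32 and 51, with overlapping ranges. Unsorted vacuolated cells had received either 0.5 µM CHIR99021, an inhibitor of the kinase GSK3, or 14% of a supplement named only BCS. Sorted vacuolated cells had also received CHIR99021 and were passed through a sorter, and the labels do not say which cells the sort kept. Vesicles, hollow structures grown from the cells, were formed in serum medium with CHIR99021, at a dose the labels do not make clear, or in serum-free N2B27 medium with 3 µM CHIR99021 and 10 ng/ml murine LIF, a cytokine. The labels call the libraries independent preparations of 1 line, so p-values measure the spread between such preparations and not between separately derived lines.

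The proteasome is the enzyme complex that degrades proteins tagged with ubiquitin in the nucleus and cytoplasm. Its barrel, the 20S core, is built of outer rings of alpha subunits, which gate the entrance, and inner rings of beta subunits, some of which carry the proteolytic sites. The 19S cap recognises ubiquitin chains, removes them and uses a ring of ATPases to unfold the substrate and feed it into the barrel. In many cell types interferon exchanges the catalytic beta subunits for immunoproteasome forms and raises the PA28 activator, while the transcription factor NFE2L1 raises the core and cap genes together when proteasome activity is short. Total RNA, depleted of ribosomal RNA, was sequenced here, so the values are RNA levels in bulk cultures: a smaller share of cells of 1 kind and less RNA per cell cannot be told apart.

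Libraries held 4050722 to 12074939 counts. The 2 most abundant genes took 37.6 to 43.6% of the counts in normal cells and 51.0 to 61.1% in vesicles, and mitochondrially encoded genes accounted for 3.13 to 3.38% of what was left in the normal libraries and for 7.11 to 9.43% of it in the vesicle libraries. Levels are therefore given as counts-per-million values (CPM) after TMM scaling. All 11 pXEN markers checked had counts in every group, with a summed level of 5170 to 5570 CPM in normal cells and 3080 to 4190 CPM in vesicles. Among them Pou5f1, the pluripotency factor that sets pXEN cells apart from other endoderm lines, averaged 118 ± 15.7 CPM (SD, n = 3) in normal cells, 1.25 ± 0.482 in serum vesicles and 0.746 ± 0.824 in serum-free vesicles. The means of Gata6, Gata4, Sox17, Sparc, Lama1, Col4a1 and Dab2 were also lower in both kinds of vesicle. Other markers were not lower there. Foxa2 averaged 24.3 CPM in normal cells and 47 and 44.6 in vesicles, Pdgfra 197, 244 and 293, and Sox7 3.82, 4.09 and 5.11. Cdx2, a gene of trophoblast and gut, had 0 counts in normal cells and averaged 25 ± 5.79 and 22.2 ± 4.44 CPM in the vesicles. Of the other 6 trophoblast genes checked, Eomes averaged 8.25 ± 1.12 CPM in normal cells and 0.854 ± 0.49 and 0.969 ± 0.212 in the vesicles, Elf5, Gata3, Tfap2c and Ascl2 averaged at most 1.4 CPM in any group, and Hand1 had 0 counts. The part of these shifts in the proteasome values was not tested.

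The proteasome genes as a group made up less of the RNA in vesicles than in normal cells. Of the counts outside the 2 most abundant genes, the 49 genes took 0.941, 0.954 and 0.933% in the normal libraries. They took 0.868, 0.909 and 0.851% in CHIR-vacuolated cells, 0.822, 0.794 and 0.868% in BCS-vacuolated cells and 0.785, 0.725 and 0.812% in sorted vacuolated cells. In serum vesicles the share was 0.556, 0.577 and 0.503%, and in serum-free vesicles 0.519, 0.555 and 0.562%. All 6 vesicle libraries thus lay below all 12 others, and all 9 vacuolated libraries lay below all 3 normal ones. Without the mitochondrial counts in the total, the mean share was 0.975% in normal cells, 0.909, 0.862 and 0.837% in the vacuolated groups, and 0.597 and 0.596% in the vesicles, so the order of the group means was kept apart from the near tie of the vesicles.

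**Figure D1:**
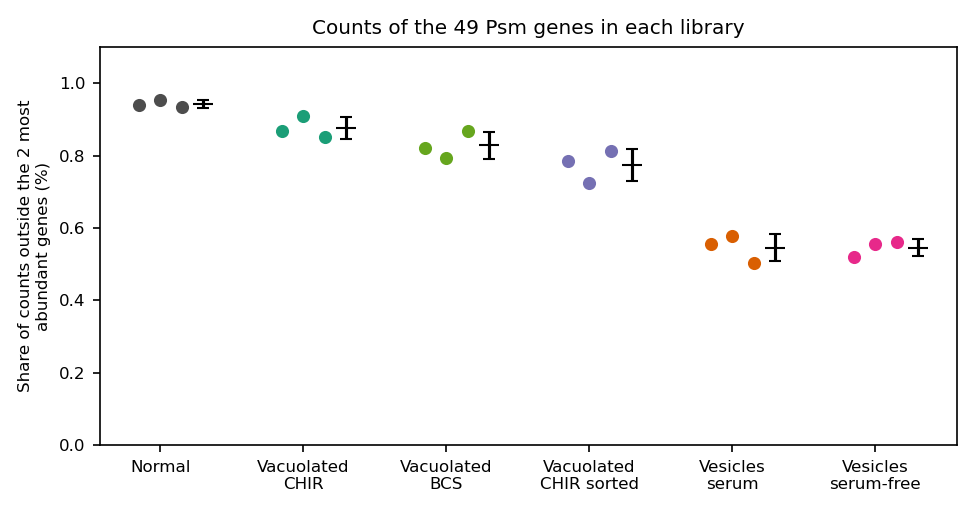
Share of each library's counts taken by the 49 proteasome genes, in percent of the counts outside the 2 most abundant genes, for the 6 groups. Points are libraries, and the bar gives the mean ± SD of 3 libraries: the normal mean of 0.943% falls to 0.545% in both vesicle groups.

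Gene by gene, 46 of the 49 passed the filter on low counts and were tested with edgeR's quasi-likelihood test and Benjamini-Hochberg adjustment over 11503 genes (passed means adjusted p under 0.05). The 5 comparisons with normal cells share the same 3 normal libraries. In serum vesicles 39 of the 46 fell and 2 rose, where 28.8% of all tested genes fell and 31.7% rose. In serum-free vesicles 35 fell and 1 rose, against 27.5% and 30.2% of all tested genes. The median log2 fold change of the 46 genes was -0.95 in serum vesicles and -0.72 in serum-free vesicles, beside 0.06 and 0.03 over all tested genes.

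The vacuolated cells gave smaller and fewer differences. In sorted vacuolated cells 19 of the 46 fell and 2 rose, where 11.5% of all tested genes fell and 14.4% rose. In BCS-vacuolated cells 13 fell and 0 rose, where 9.51% of all tested genes fell and 11.2% rose. In unsorted CHIR-vacuolated cells 3 fell, namely Psme1, Psme2 and Psmd14, and 0 rose, where 3.13% fell and 4.49% rose overall. The medians of the 46 genes were -0.35, -0.22 and -0.05, and those of all tested genes 0.01, 0.00 and 0.00.

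Some of these counts rest on single libraries. Without normal replicate 1 the count of genes passing was 5 in BCS-vacuolated cells and 0 in CHIR-vacuolated cells. It was 6 in BCS-vacuolated cells without that group's replicate 1 and 8 without normal replicate 3. Without sorted replicate 2 it was 12 in sorted cells, and in CHIR-vacuolated cells it was 1 without normal replicate 2 or without CHIR replicate 1 or 3. Under each of the 16 alternatives described below, 5 of the 13 genes in BCS-vacuolated cells (Psmb3, Psmb10, Psmd2, Psme3 and Psmg1), 7 of the 21 in sorted cells (Psma7, Psmb3, Psmb4, Psmb6, Psmb10, Psmd8 and Psme1, the last with no value from unstranded counts) and 0 of the 3 in CHIR-vacuolated cells passed. In vesicles the count stayed between 33 and 40 when any 1 library was left out.

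The 31 genes of the core and cap, 7 alpha, 7 beta, 6 ATPase and 11 non-ATPase genes, made up 30 of the 39 genes that fell in serum vesicles and 28 of the 35 in serum-free vesicles. All 31 had a log2 fold change below 0 in both kinds of vesicle, with medians of -1.09 and -0.91. Their highest serum vesicle library lay below their lowest normal library for 30 of the 31 genes, where 30.6% of all tested genes showed such a gap, and for 29 of the 31 in serum-free vesicles, where 30.1% did. The decrease held under every one of 16 other ways of processing (another scaling, filter, tool or model, or 1 library left out) for 28 genes in serum vesicles and 25 in serum-free vesicles. In sorted cells 14 of the 31 fell and 1, Psmd2, rose, where 11.5% of all tested genes fell and 14.4% rose. In BCS-vacuolated cells 6 fell (Psma5, Psmb1, Psmb2, Psmb3, Psmb6 and Psmd2), where 9.51% of all tested genes did. In CHIR-vacuolated cells 1 fell, Psmd14, near the 3.13% of all tested genes that did.

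**Figure D2:**
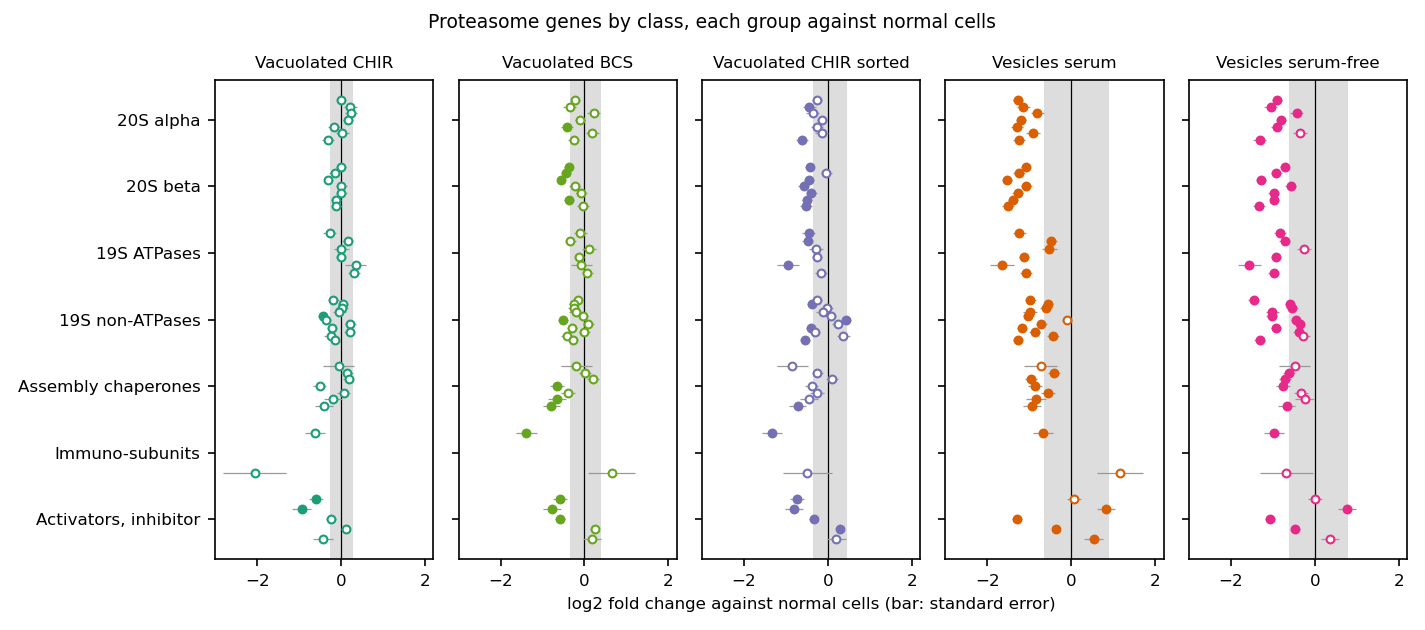
Log2 fold change of each proteasome gene against normal cells, with its SE as a bar, in the 5 other groups, ordered by role. Filled points passed the test, open points did not, and the grey band holds the middle 50% of all tested genes: the core and cap genes lie left of 0 in both vesicle panels, Psme2 and Psmf1 lie right of 0 in both, and Psme1 lies within its SE of 0.

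The alpha subunits form the outer rings of the core, and 7 such genes were tested. All 7 fell in serum vesicles (median log2 fold change -1.20) and 6 of 7 in serum-free vesicles (median -0.89). Psma4 stood at 186, 181 and 209 CPM in normal cells, 79.9, 97 and 72.4 in serum vesicles and 95.3, 113 and 122 in serum-free vesicles. Neither vesicle group overlapped the normal libraries: serum vesicles gave a log2 fold change -1.20 ± 0.13 (SE), adjusted p = 1.14e-08, and serum-free vesicles a log2 fold change -0.80 ± 0.12 (SE), adjusted p = 5.21e-06. In the 9 vacuolated libraries Psma4 ranged from 162 to 228 CPM, around the normal levels, and passed in none of the 3 groups. Psma7 was lower in sorted cells as well. Its normal libraries held 52.8, 42.2 and 53.7 CPM, the sorted ones 33.4, 29.7 and 33.8, the serum vesicles 25, 17.3 and 20.3 and the serum-free vesicles 20.9, 19.8 and 19.6. Sorted cells lay between normal cells and vesicles without overlap, with a log2 fold change -0.62 ± 0.14 (SE), adjusted p = 0.0022, and the serum-free vesicles reached -1.31 ± 0.15 (adjusted p = 4.89e-08). The exception in serum-free vesicles was Psma6, at 171, 143 and 166 CPM in normal cells, 92.5, 92.4 and 68.5 in serum vesicles and 93.4, 140 and 143 in serum-free vesicles. Its serum-free libraries overlapped the normal range at the low end, and the difference of -0.35 did not pass (adjusted p = 0.0758). The other alpha genes were Psma1, Psma2, Psma3l and Psma5. Psma3l is a name that the RefSeq table lists as a synonym of Psma3. In serum vesicles these 4 fell by 0.81 to 1.30 on the log2 scale.

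Among the beta subunits of the inner rings, all 7 standard genes fell in both kinds of vesicle, with medians of -1.28 and -0.96. Psmb5, Psmb6 and Psmb7 carry the chymotrypsin-like, caspase-like and trypsin-like sites. Psmb5 stood at 86, 88.3 and 90.1 CPM in normal cells, 72.9, 59.8 and 68.2 in sorted cells, 38.3, 41.2 and 28.8 in serum vesicles and 43.3, 46 and 44.5 in serum-free vesicles. No 2 of these groups overlapped, and the fall in vesicles was a log2 fold change -1.28 ± 0.13 (SE), adjusted p = 1.13e-08 with serum and -0.98 ± 0.13 (adjusted p = 6.12e-07) without. Unsorted vacuolated cells, at 74.3 to 93.1 CPM, overlapped the normal range. Psmb6 held 143, 123 and 143 CPM in normal cells, 107, 97.7 and 112 in BCS-vacuolated cells and 101, 90 and 98.8 in sorted cells. It held 53.6, 56.6 and 47 CPM in serum vesicles and 69.9, 74.7 and 66.4 in serum-free vesicles. Each of these groups lay below the normal libraries, with log2 fold changes of -0.37 (adjusted p = 0.021), -0.50 (0.00196), -1.38 (3.53e-10) and -0.96 (1.22e-07). Psmb7 held 189, 159 and 165 CPM in normal cells, 132, 95.5 and 128 in sorted cells, 69.7, 57.2 and 52.8 in serum vesicles and 74.2, 70.3 and 61.8 in serum-free vesicles. Its serum vesicle level was 2.85-fold below normal (log2 fold change -1.51 ± 0.14 (SE), adjusted p = 2.18e-09). Some calls in vacuolated cells were lost under an alternative, while the sorted call of Psmb6 passed under all 16. In sorted cells Psmb5 (-0.40, adjusted p = 0.023) no longer passed without normal replicate 2 or 3 or sorted replicate 2 or 3 or with no low-count filter, and Psmb7 (-0.53, adjusted p = 0.00573) without sorted replicate 2. The BCS call of Psmb6 was lost without normal replicate 1 or 3 or BCS replicate 1 or 2 and with no low-count filter.

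Psmb3, a beta subunit without a catalytic site, showed the lowest beta value in serum vesicles. It stood at 122, 121 and 122 CPM in normal cells, 89.3, 105 and 103 in CHIR-vacuolated cells and 86, 81.2 and 83 in BCS-vacuolated cells. The vesicle libraries held 45, 42.3 and 38 CPM with serum and 49.9, 49.7 and 51 without. The normal libraries were nearly equal and every other library was lower, with a 2.91-fold decrease in serum vesicles (log2 fold change -1.54 ± 0.12 (SE), adjusted p = 7.56e-11) and a 2.43-fold decrease in serum-free vesicles. The BCS value, -0.55 ± 0.11 (adjusted p = 0.00128), passed under all 16 alternatives, and the CHIR value of -0.30 did not pass (adjusted p = 0.113). Beta genes also made up 6 of the 14 core and cap genes that fell in sorted cells and 4 of the 6 that fell in BCS-vacuolated cells. RefSeq lists 7 pseudogenes and 3 like genes of Psmb3, so reads could have been split between copies, and the same applies to 18 other genes of the set, each with 1 to 5 copies.

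**Figure D3:**
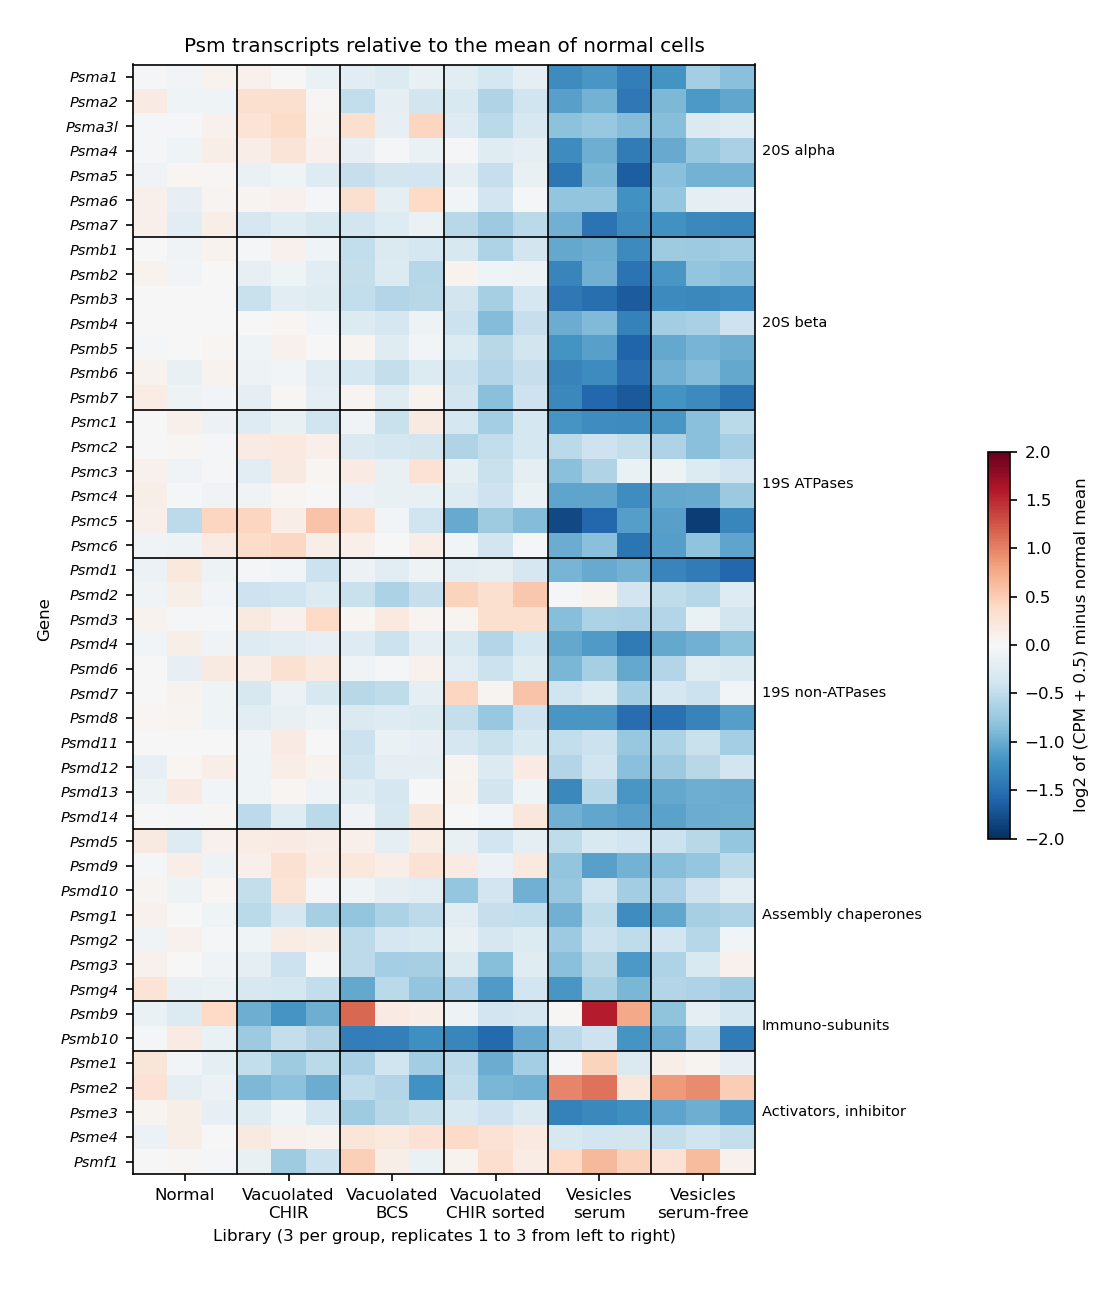
Level of 45 proteasome genes in 18 libraries as log2(CPM + 0.5) minus the mean of the 3 normal libraries, in 7 classes by role. Columns are libraries grouped by condition and colour runs from lower to higher than normal: the vesicle columns are lower for nearly all core and cap genes and higher for Psme2.

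The ATPase ring of the cap, encoded by Psmc1 to Psmc6, unfolds substrates. All 6 genes fell in serum vesicles (median -1.10) and 5 of 6 in serum-free vesicles (median -0.88), where Psmc3 at -0.26 did not pass (adjusted p = 0.197). Psmc1 held 204, 220 and 189 CPM in normal cells, 89.5, 86.1 and 84.8 in serum vesicles and 90.4, 114 and 140 in serum-free vesicles. The 2 kinds of vesicle were both below the normal range (-1.24 ± 0.15, adjusted p = 2.1e-07, and -0.83 ± 0.15, adjusted p = 5e-05). Psmc4 held 94.2, 85 and 82.8 CPM in normal cells, 41.7, 41.5 and 36.4 in serum vesicles and 42.7, 43 and 52.2 in serum-free vesicles. Its serum vesicle value was -1.13 ± 0.12 (adjusted p = 2.1e-08), and its 3 vacuolated groups did not pass. Psmc2 and Psmc3 had the smallest changes of the ring in serum vesicles, -0.48 and -0.52.

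Psmc5 had the lowest value of all 46 genes in both kinds of vesicle. Its libraries held 14.4, 9.21 and 18.2 CPM in normal cells, 18.2, 14.8 and 20.2 in CHIR-vacuolated cells and 17.1, 12.9 and 10.1 in BCS-vacuolated cells. Sorted cells held 6.45, 8.05 and 7.1 CPM, serum vesicles 3.5, 4.17 and 5.99 and serum-free vesicles 6.03, 3.28 and 5.12. The normal libraries were spread widely, yet all sorted and vesicle libraries lay below the lowest of them. The decrease was 1.94-fold in sorted cells (log2 fold change -0.96 ± 0.26 (SE), adjusted p = 0.00781), 3.14-fold in serum vesicles (-1.65 ± 0.29, adjusted p = 2.4e-05) and 2.95-fold in serum-free vesicles (-1.56 ± 0.28, adjusted p = 3.53e-05). These levels rest on few reads, 23 to 148 counts a library, and the call in sorted cells was lost without normal replicate 3 (adjusted p = 0.0845).

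The non-ATPase genes of the cap encode its scaffold, ubiquitin receptor and lid. Of 11 genes, 10 fell in serum vesicles (median -0.87) and 10 in serum-free vesicles (median -0.58). Psmd14 encodes the deubiquitinase that cuts the chain off the substrate. It held 104, 102 and 105 CPM in normal cells, 71.6, 87.1 and 71.5 in CHIR-vacuolated cells, 53.1, 50.2 and 48.4 in serum vesicles and 49.3, 51.8 and 52.4 in serum-free vesicles. The CHIR libraries lay below normal (log2 fold change -0.43 ± 0.13 (SE), adjusted p = 0.0365) and the vesicles lower still (-1.03 and -1.02), while sorted cells overlapped normal cells at 104, 99.8 and 121 CPM. The CHIR call passed in 10 of 16 alternatives and was lost without any 1 of the 6 libraries except CHIR replicate 2 (adjusted p up to 0.176). Psmd4, a ubiquitin receptor, held 120, 135 and 119 CPM in normal cells, 60.9, 56.6 and 46.6 in serum vesicles and 60.8, 63.9 and 70.5 in serum-free vesicles. Its vesicle values were -1.18 ± 0.12 (adjusted p = 1.41e-08) and -0.93 ± 0.12 (adjusted p = 5.39e-07), with all vesicle libraries below all normal ones.

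Psmd1 and Psmd2 encode the 2 large scaffold proteins of the cap base. Psmd1 held 121, 153 and 123 CPM in normal cells, 68.8, 65.1 and 68 in serum vesicles and 52.2, 49.4 and 43.8 in serum-free vesicles. The serum-free libraries were the lowest, 2.74-fold below normal (log2 fold change -1.45 ± 0.13 (SE), adjusted p = 7.03e-10), and vacuolated cells, at 97.4 to 128 CPM, did not pass. Psmd2 held 219, 249 and 221 CPM in normal cells, 172, 174 and 189 in CHIR-vacuolated cells and 169, 148 and 166 in BCS-vacuolated cells. Sorted cells held 314, 286 and 333 CPM, serum vesicles 223, 241 and 176 and serum-free vesicles 161, 155 and 191. All 3 sorted libraries were above every other library, the serum vesicles overlapped the normal ones, and the BCS and serum-free libraries were below normal. Psmd2 rose 1.35-fold in sorted cells (log2 fold change 0.44 ± 0.12 (SE), adjusted p = 0.0103), fell by 0.52 in BCS-vacuolated cells (adjusted p = 0.00438) and by 0.44 in serum-free vesicles (adjusted p = 0.00378) on the log2 scale, and was not shown to differ in serum vesicles (-0.10, adjusted p = 0.478). The rise in sorted cells did not pass without sorted replicate 3 (adjusted p = 0.0508). Direct tests were run because these calls had opposite signs, so they were likely to pass. Sorted cells stood above BCS-vacuolated cells by 0.95 (adjusted p = 7.21e-06) and above serum-free vesicles by 0.88 (adjusted p = 2.29e-06) on the log2 scale. Psmd7, the lid partner of Psmd14, held 68.6, 71.4 and 64 CPM in normal and 92.1, 70.5 and 101 in sorted cells, which overlapped (0.37, adjusted p = 0.0622). The 6 other lid and base genes, Psmd3, Psmd6, Psmd8, Psmd11, Psmd12 and Psmd13, fell by 0.56 to 1.27 in serum vesicles and by 0.35 to 1.31 in serum-free vesicles on the log2 scale.

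Assembly chaperones bind immature proteasomes and leave before or as the particle is finished. Psmg1 to Psmg4 act on the core and Psmd5, Psmd9 and Psmd10 on the base of the cap, and 6 of the 7 fell in serum vesicles (median -0.84) and 4 in serum-free vesicles (median -0.61). Psmg1 held 58.9, 55.3 and 51.8 CPM in normal cells, 38, 43.6 and 34.7 in CHIR-vacuolated cells and 31.7, 35.5 and 38.1 in BCS-vacuolated cells. The vesicles held 28, 38.8 and 23.1 CPM with serum and 26.7, 34.8 and 35.8 without. Every non-normal library was below the normal ones, and the difference passed in BCS-vacuolated cells (log2 fold change -0.65 ± 0.16 (SE), adjusted p = 0.00575), serum vesicles (-0.87, adjusted p = 7.58e-05) and serum-free vesicles (-0.76, adjusted p = 0.000321). In CHIR-vacuolated cells it missed the threshold (-0.51, adjusted p = 0.0524). Psmg4 held 23.7, 17.5 and 17.7 CPM in normal cells, 9.33, 13.2 and 11.1 in BCS-vacuolated cells and 12.2, 8.61 and 14.8 in sorted cells. Both vacuolated groups lay below normal (-0.79 ± 0.21, adjusted p = 0.00828, and -0.72 ± 0.20, adjusted p = 0.0111), of which the first was lost without normal replicate 1 (adjusted p = 0.0636) or BCS replicate 1 (adjusted p = 0.0585) and the second without sorted replicate 2 (adjusted p = 0.0864). Psmg3 was the third chaperone gene that fell in BCS-vacuolated cells (-0.65, adjusted p = 0.0375), and Psmd10 passed in none of the 5 comparisons. Psmd10 had only 292 counts in the series. Its serum vesicle libraries, at 1.52 to 2.09 CPM, lay below the normal ones, at 2.69 to 3.05 CPM.

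Of the 5 activator and inhibitor genes, 2 rose and 2 fell in serum vesicles, where 31.7% of all tested genes rose and 28.8% fell. In serum-free vesicles 1 rose and 2 fell, where 30.2% and 27.5% did. With so few genes these counts are not read as a difference from all tested genes. Psme1 and Psme2 encode the alpha and beta subunits of PA28, a ring that opens the core without ubiquitin or ATP and is best known from antigen processing. Psme2 held 33, 23.8 and 24.7 CPM in normal cells, 14.2, 15 and 13.3 in CHIR-vacuolated cells, 18.8, 17.8 and 11.3 in BCS-vacuolated cells and 18.9, 14 and 13.7 in sorted cells. The vesicles held 53.6, 57.8 and 31.6 CPM with serum and 49, 52.2 and 37.9 without. All 9 vacuolated libraries were below the normal ones, all serum-free vesicle libraries were above them, and 1 serum vesicle library fell within the normal range. Psme2 fell in CHIR-vacuolated cells (log2 fold change -0.94 ± 0.23 (SE), adjusted p = 0.00869), BCS-vacuolated cells (-0.77, adjusted p = 0.0156) and sorted cells (-0.81, adjusted p = 0.0079). It rose 1.77-fold in serum vesicles (log2 fold change 0.82 ± 0.21 (SE), adjusted p = 0.00178) and 1.7-fold in serum-free vesicles (0.77 ± 0.21, adjusted p = 0.00323). The opposite directions were tested directly. These pairs were picked by their opposite calls against the same normal libraries, so a direct test was likely to pass. Vesicles exceeded the 3 vacuolated groups by 1.59 to 1.76 with serum and by 1.54 to 1.71 without, on the log2 scale, with adjusted p-values from 3.53e-07 to 2.32e-06. Normal replicate 1 was the highest of its group, and without it the decreases in CHIR-vacuolated, BCS-vacuolated and sorted cells no longer passed (adjusted p = 0.0672, 0.0971 and 0.0614). The BCS call was also lost without BCS replicate 3 (adjusted p = 0.0985), while both increases in vesicles passed under all 16 alternatives.

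Its partner Psme1 shared the lower level in vacuolated cells. It held 66.6, 54.1 and 48.6 CPM in normal cells, 39.8, 34.1 and 38.5 in CHIR-vacuolated cells, 35.4, 42.1 and 34.4 in BCS-vacuolated cells and 38.9, 27.8 and 34.8 in sorted cells. No vacuolated library reached the lowest normal one, and the log2 fold changes were -0.59 (adjusted p = 0.0321), -0.59 (0.0147) and -0.73 (0.00229). The sorted call passed under all 15 alternatives that gave a value for Psme1. The CHIR call was lost without any 1 library except normal replicate 3, and the BCS call without normal replicate 1 or BCS replicate 1 or 3. In vesicles, at 55.1, 76.3 and 45.6 CPM with serum and 60.8, 58 and 50.1 without, the libraries overlapped normal cells. The differences of 0.07 ± 0.17 and 0.00 ± 0.17 did not pass (adjusted p = 0.726 and 0.986). RefSeq lists 3 copies each of Psme1 (2 pseudogenes and 1 like gene) and Psme2 (3 pseudogenes).

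Psme3, the nuclear relative of PA28, fell as the core and cap genes did. It held 119, 125 and 102 CPM in normal cells, 70, 78.1 and 82.6 in BCS-vacuolated cells, 44.7, 46.6 and 48.9 in serum vesicles and 55.2, 58.3 and 51.9 in serum-free vesicles. The last 3 groups were all below the normal libraries, with log2 fold changes of -0.58 (adjusted p = 0.000894), -1.30 (1.4e-09) and -1.06 (3.6e-08). Psme4, the large single-chain nuclear activator PA200, held 195, 230 and 213 CPM in normal cells, 278, 258 and 242 in sorted cells, 169, 162 and 165 in serum vesicles and 152, 160 and 153 in serum-free vesicles. Sorted libraries were above and vesicle libraries below all normal ones. The sorted value, 0.29 ± 0.10 (adjusted p = 0.0414), passed in 7 of 16 alternatives and not without normal replicate 1 or 3 or sorted replicate 1 or 2, and the vesicle values were -0.36 (adjusted p = 0.00399) and -0.46 (adjusted p = 0.000583). The direct tests of Psme4 were also picked by its opposite calls. Sorted cells stood above serum vesicles by 0.65 (adjusted p = 1.18e-05) and above serum-free vesicles by 0.74 (adjusted p = 1.99e-06). Psmf1, the inhibitor protein PI31, held 8.43, 8.63 and 8.32 CPM in normal cells, 11.3, 13.5 and 11.8 in serum vesicles and 10.5, 13.4 and 8.97 in serum-free vesicles. Both vesicle groups lay above normal, and the serum value passed (log2 fold change 0.53 ± 0.22 (SE), adjusted p = 0.045), though in 5 of 16 alternatives only and in none that left out a library, while the serum-free value did not (0.37, adjusted p = 0.156).

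Immunoproteasome subunits replace the standard catalytic ones, Psmb8 for Psmb5, Psmb9 for Psmb6 and Psmb10 for Psmb7. Of the 3, Psmb10 was the best covered. It held 15.4, 17.8 and 14.4 CPM in normal cells, 9.39, 11.2 and 10.3 in CHIR-vacuolated cells, 5.77, 5.84 and 6.47 in BCS-vacuolated cells and 6.11, 5.03 and 7.65 in sorted cells. The vesicles held 10.8, 11.7 and 6.69 CPM with serum and 7.72, 10.8 and 5.71 without. Every library outside the normal group was below it. Psmb10 fell 2.62-fold in BCS-vacuolated cells (log2 fold change -1.39 ± 0.25 (SE), adjusted p = 0.000281), 2.51-fold in sorted cells (adjusted p = 0.000234), and by 0.68 (adjusted p = 0.0169) and 0.97 (adjusted p = 0.0013) on the log2 scale in serum and serum-free vesicles. The serum vesicle call was lost without that group's replicate 3 (adjusted p = 0.0888) and without normal replicate 2 (adjusted p = 0.055), and the CHIR value of -0.63 ± 0.24 did not pass (adjusted p = 0.111). In BCS-vacuolated cells its decrease was larger than that of any other of the 46 genes.

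Psmb9 gave only 5, 4 and 10 counts in the normal libraries, 2, 1 and 2 in CHIR-vacuolated, 17, 11 and 9 in BCS-vacuolated and 8, 6 and 9 in sorted cells. It gave 7, 29 and 9 counts in serum vesicles, with 1 library well above the other two, and 2, 7 and 6 in serum-free vesicles. No comparison with normal cells passed. Psmb8 was not tested: its 23 counts in the whole series came from 10 libraries, 9 of them from serum vesicle replicate 2. Psmb11, the thymus-specific form, had 0 counts in 18 libraries. At the limit of 3 counts that allows at most 0.0225 CPM over the unscaled totals of all 18 libraries pooled. The limit for any single library is higher. The testis-specific alpha subunit Psma8 had 2 counts. Psmc3ip shares the name only, encoding a recombination factor, and 28.8% of its reads lay on the other strand. With 141 counts it passed in no comparison with normal cells (log2 fold changes of 0.36 to 1.39).

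**Figure D4:**
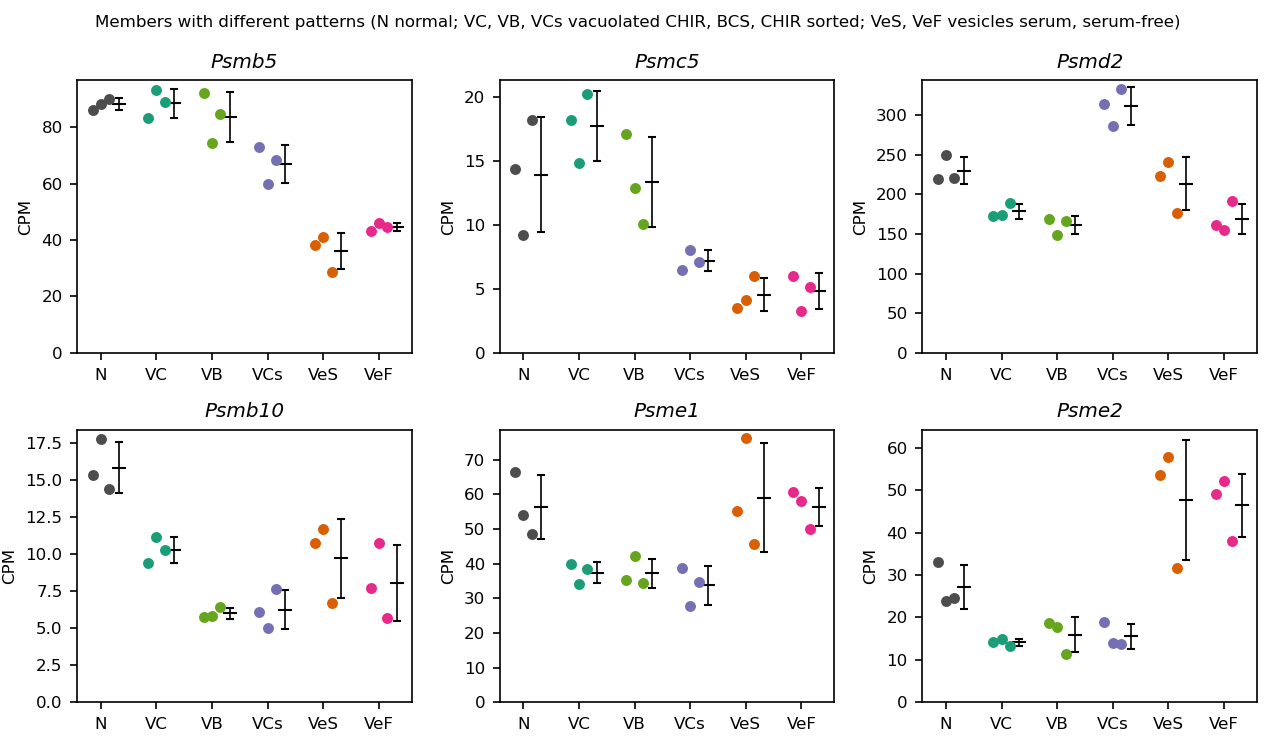
CPM in each library of Psmb5 (core), Psmc5 and Psmd2 (cap), Psmb10 (immunoproteasome) and Psme1 and Psme2 (PA28) in the 6 groups. Points are libraries, bars the mean ± SD (n = 3), and each panel starts at 0 with its own scale: Psmb5 drops in vesicles, Psmd2 peaks in sorted cells and Psme2 is low in vacuolated cells and high in vesicles.

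The 2 kinds of vesicle were compared with each other. Besides the medium, the serum-free vesicles had 10 ng/ml LIF, and the CHIR99021 dose with serum is not clear. These differences cannot be told apart here. Of the 46 genes, 9 were higher and 3 lower in serum-free than in serum vesicles, where 12.9% of all tested genes were higher and 11.5% lower. The 9 were Psma1, Psma4, Psma5, Psma6, Psmb1, Psmb4, Psmb6, Psmd3 and Psmd6, with log2 fold changes of 0.36 to 0.57. Psma6 had the largest (0.57 ± 0.17, adjusted p = 0.0157), and its serum-free libraries, listed above, lay above the serum ones. Psmd6 held 59.6, 70.6 and 55.3 CPM in serum and 74.4, 94.8 and 91.9 in serum-free vesicles, again without overlap (log2 fold change 0.49 ± 0.13 (SE), adjusted p = 0.00708). Psmd1 and Psmd2 were lower in serum-free vesicles (-0.48, adjusted p = 0.00873, and -0.34, adjusted p = 0.0492). Psmb9 was lower as well (-1.84 ± 0.57, adjusted p = 0.0213), a call lost without serum replicate 2 or serum-free replicate 1 or 3. The Psma6 call was lost without serum replicate 3 or serum-free replicate 2 or 3, and the Psmd1 call without serum-free replicate 3 (adjusted p = 0.0528). These calls depended on the scaling and on single libraries: scaled by the library totals without the 2 most abundant genes, 2 genes were higher and 5 lower, and the median of the 46 genes moved from 0.22 to 0.05 while that of all tested genes moved from 0.02 to -0.16. The 12 calls became 3 without serum-free replicate 3, 4 without serum replicate 3, 6 without serum-free replicate 2 and 7 without serum replicate 1, and 0 of the 12 passed under every alternative.

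Sorted and unsorted CHIR-vacuolated cells differed in 16 of the 46 genes, 13 lower and 3 higher in sorted cells, where 5.05% of all tested genes were lower and 6.69% higher. The 3 were Psmd2 (0.80 ± 0.12, adjusted p = 9.95e-05), Psmd7 (0.63, adjusted p = 0.00628) and Psmd14 (0.50, adjusted p = 0.0116), all of the cap. Psmd7 held 54.3, 62.4 and 54.4 CPM in unsorted cells, below its sorted libraries. Psmc5 (-1.30 ± 0.25, adjusted p = 0.00127) and Psma2 (-0.66 ± 0.14, adjusted p = 0.00342) had the lowest log2 fold changes among the 13 that passed as lower. Psma2 held 61.4, 61.4 and 49.9 CPM in unsorted and 39.5, 32.3 and 37.2 in sorted cells, 2 ranges without overlap. Of the 7 beta genes 5 were lower. Without sorted replicate 2 the calls of Psmb5, Psmb6 and Psmb7 were lost (adjusted p = 0.19, 0.136 and 0.265). Each of these was also lost under other alternatives. Psmd7 no longer passed without sorted replicate 3 (adjusted p = 0.0516), and Psmd14 without that library or CHIR replicate 1 or 3. The 16 calls became 7 without CHIR replicate 2 or sorted replicate 2, 9 without sorted replicate 3 and 10 without CHIR replicate 1. Under every alternative 5 of the 16 passed, 1 higher and 4 lower. The mitochondrial share, taken the same way, was 2.88 to 4.08% in unsorted and 6.76 to 8.91% in sorted cells, and its part in these differences was not tested.

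Vacuolated cells made with CHIR99021 and with BCS differed in 7 of the 46 genes, 5 higher and 2 lower with CHIR99021, where 5.83% and 7.40% of all tested genes were. The 5 were Psma2, Psmb1, Psmb10, Psmc2 and Psme3, led by Psmb10 (0.77 ± 0.25, adjusted p = 0.042) and Psma2 (0.57 ± 0.15, adjusted p = 0.00971). Psma2 held 34.8, 43.1 and 37.9 CPM with BCS, below each CHIR library given above. The 2 lower genes were Psmd14 (-0.40, adjusted p = 0.0395) and Psmb9 (-2.70, adjusted p = 0.0109), the latter on 5 against 37 counts. Scaled by the totals without the 2 most abundant genes, 3 were higher and 2 lower. Psmb10 no longer passed without any 1 of the 6 libraries, Psma2 without CHIR replicate 1 or 2 or BCS replicate 1, Psmb9 without CHIR replicate 2 or BCS replicate 1, and Psmd14 without CHIR replicate 1 or 3 or BCS replicate 1 or 3. The 7 calls became 1 without BCS replicate 1, 2 without CHIR replicate 1 or 2 and 3 without BCS replicate 3. Under every alternative 0 of the 7 passed.

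Serum vesicles were also set against the unsorted CHIR-vacuolated cells, which had received 0.5 µM CHIR99021. The labels do not make the dose of the serum vesicles clear, so form and dose cannot be told apart. Of the 46 genes 36 were lower and 4 higher, where 27.6% and 30.3% of all tested genes were. The lowest values were those of Psmc5 (3.99-fold, log2 fold change -2.0 ± 0.28 (SE), adjusted p = 1.61e-06) and Psmb7 (-1.40 ± 0.14, adjusted p = 1.03e-08). The 4 higher genes were Psmb9, Psme2, Psme1 and Psmf1, none of them a core or cap gene. Psme2 stood 3.4-fold higher (log2 fold change 1.76 ± 0.22 (SE), adjusted p = 3.53e-07), Psme1 by 0.66 (adjusted p = 0.00185) and Psmf1 by 0.96 (adjusted p = 0.000876) on the log2 scale. Psmb9 gave 3.21 ± 0.68 (adjusted p = 0.000278), on 45 against 5 counts.

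Promoter sequences were read for the genes that moved together, from the RefSeq windows of 300 bases (250 before and 50 after the annotated start) of the GRCr8 build, which is not the rn6 build the submitters' processing notes name for the counts. A window was found for 44 of the 49 genes. Both strands were searched for 5 short motifs, and a match is a description of the letters and not a bound site. The core of the antioxidant response element, TGACNNNGC, to which NFE2L1 and its relatives bind, occurred in 8 of the 44 windows (18.2%), beside 12.2% of all 27457 genes with a window and 15% of the tested ones. Stretches from 3 beta genes that fell in both kinds of vesicle show it, with the fixed letters in capitals. Psmb5 is at chr15:32047407-32047463 on the minus strand, Psmb6 at chr10:55737840-55737887 and Psmb2 at chr5:144254966-144255022 on the plus strand.
Psmb5: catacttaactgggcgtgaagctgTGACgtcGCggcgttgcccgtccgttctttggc
Psmb6: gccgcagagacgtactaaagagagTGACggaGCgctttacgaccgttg
Psmb2: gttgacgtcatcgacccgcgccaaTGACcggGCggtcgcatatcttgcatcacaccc
In Psmb2 the first T of the motif is also the last letter of a CCAAT box, the motif of NF-Y, which occurred in 50% of the 44 windows and 37.7% of all.

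The motif CCGGAAG, bound by ETS family factors, occurred in 16 of the 44 windows (36.4%), beside 9.22% of all windows and 19.2% of those of tested genes. Of the 42 windows of tested genes in the set, 15 (35.7%) held it. The 16 include Psma8, which was not tested, and Psmc3ip, which shares the name only. The motif of nuclear respiratory factor (GCGCA, any base, GCGC) occurred in 13.6% of the 44 windows, beside 4.71% of all windows and 10.9% of those of tested genes. It occurred in 14.3% of the 42. Stretches with CCGGAAG, or its reverse complement, in capitals are shown for an alpha, a beta and an ATPase gene that fell in serum vesicles; Psmb7 and Psmc6 also fell in serum-free vesicles, and Psma6 did not pass there. Psma6 is at chr6:78514280-78514346 on the plus strand, Psmb7 at chr3:42827471-42827548 on the minus strand and Psmc6 at chr15:21022221-21022275 on the plus strand.
Psma6: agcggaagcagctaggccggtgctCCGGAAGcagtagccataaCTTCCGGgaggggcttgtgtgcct
Psmb7: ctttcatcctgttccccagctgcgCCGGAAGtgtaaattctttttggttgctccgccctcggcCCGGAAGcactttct
Psmc6: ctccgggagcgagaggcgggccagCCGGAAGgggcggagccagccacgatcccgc
Psma6 and Psmb7 hold the motif more than 1 time within these stretches, the former on both strands.

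The interferon-stimulated response element core (GAAA, any 2 bases, GAAA) was searched as well, a motif added after the values had been seen. It occurred in 7 of the 44 windows (15.9%), beside 3.77% of all windows and 2.77% of those of tested genes. Of the 42 windows of tested genes in the set, 6 (14.3%) held it. The 7 genes were Psma4, Psmb3, Psmb8, Psmb10, Psmd7, Psme2 and Psmg4. Of these, Psma4 and Psmb3 are core genes that fell in both kinds of vesicle. Psme1, Psmb9 and Psmf1, which like Psme2 were higher in serum vesicles than in CHIR-vacuolated cells, had windows without the motif. The stretches of Psme2, at chr15:33052771-33052828, and of Psmb10, at chr19:50743293-50743389, both on the minus strand, carry it in capitals.
Psme2: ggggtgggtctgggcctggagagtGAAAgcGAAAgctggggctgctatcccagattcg
Psmb10: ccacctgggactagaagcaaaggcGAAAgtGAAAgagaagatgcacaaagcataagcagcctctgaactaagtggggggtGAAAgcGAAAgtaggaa
Both genes hold the motif and their RNAs went in opposite directions in vesicles, where Psme2 rose and Psmb10 fell. Psme1 and Psme2 lie close together on chromosome 15 of the RefSeq annotation, in the order Dcaf11, Fitm1, Psme1, Emc9, Psme2, Rnf31, Irf9 and Rec8 among protein-coding genes. Rnf31, next to Psme2, passed in none of the 5 comparisons with normal cells (-0.08 to 0.17 on the log2 scale). Irf9, a subunit of the interferon-response factor ISGF3, rose in both kinds of vesicle (1.16 ± 0.23, adjusted p = 9.66e-05, and 1.33 ± 0.22, adjusted p = 1.7e-05) and in vacuolated cells gave 0.04 to 0.17, which did not pass.

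Genes named otherwise, which work with the proteasome, control its genes or belong to interferon signalling and antigen presentation, were taken from 4 lists. The first holds proteasome-bound proteins and ubiquitin shuttles, of which 15 were tested. In serum vesicles 10 of the 15 fell and 2 rose (median -0.54), and in serum-free vesicles 11 fell and 2 rose (median -0.44), beside the shares of all tested genes given above. In CHIR-vacuolated, BCS-vacuolated and sorted cells 1, 2 and 3 fell and 2 rose in each. Of all tested genes 3.13, 9.51 and 11.5% fell and 4.49, 11.2 and 14.4% rose in these groups. Sem1, a small lid subunit, fell by 1.11 on the log2 scale in serum vesicles, and Usp14, a deubiquitinase of the cap, by 1.03. The ubiquitin receptor Adrm1 rose in BCS-vacuolated cells (0.66, adjusted p = 0.000608) and fell in vesicles (-0.57 and -0.42). Shuttle factors carry ubiquitinated proteins to the cap. Of these, Rad23b fell (-1.38, adjusted p = 2.15e-10, and -1.13, adjusted p = 6.16e-09) in serum and serum-free vesicles. Ubqln1 fell (-0.97 and -1.05), Ubqln4 rose (0.49 and 0.73) and Ubqln2 rose most, from 19.2 ± 4.36 CPM in normal cells to 213 ± 72.2 and 85 ± 7.54 CPM in vesicles (log2 fold change 3.46 ± 0.24 (SE), adjusted p = 1.84e-10 with serum). Sem1, Usp14 and Adrm1 were named after their values had been seen. Pomp, a core chaperone, had too few counts to be tested.

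The second list holds ubiquitin genes, the activating enzymes and the p97 machine, and 11 were tested. In serum vesicles 2 rose and 5 fell, where 31.7% of all tested genes rose and 28.8% fell, and in serum-free vesicles 1 rose and 4 fell, where 30.2% rose and 27.5% fell. With so few genes these counts are not read as a difference from all tested genes. In CHIR-vacuolated, BCS-vacuolated and sorted cells 2 rose in each and 1, 3 and 4 fell, where 4.49, 11.2 and 14.4% of all tested genes rose and 3.13, 9.51 and 11.5% fell. Uba1, the main ubiquitin-activating enzyme, averaged 196 ± 19.8 CPM (SD, n = 3) in normal cells. It averaged 342 ± 40.4, 518 ± 11.7 and 361 ± 16.3 CPM in CHIR-vacuolated, BCS-vacuolated and sorted cells, and 320 ± 29.3 and 502 ± 65.5 CPM in serum and serum-free vesicles. It rose in all 5 groups, by 0.71 to 1.40, under each of the 16 alternatives. Vcp, the p97 ATPase that pulls ubiquitinated proteins out of membranes and complexes, averaged 1320 ± 111 CPM in normal cells. Its means were 973 ± 32.2, 790 ± 46.8 and 960 ± 83.4 CPM in the vacuolated groups and 605 ± 79 and 622 ± 72.3 CPM in the vesicles. Vcp fell in all 5, from -0.44 (adjusted p = 0.0235) in CHIR-vacuolated cells, a call that passed in 12 of 16 alternatives, to -1.13 (adjusted p = 2.47e-08) in serum vesicles. Its cofactor Ufd1 fell in 4 of the 5 groups (-0.38, -0.65, -1.14 and -0.95 in BCS-vacuolated cells, sorted cells, serum and serum-free vesicles), though in BCS-vacuolated cells in 5 of 16 alternatives only.

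NFE2L1 is made in the membrane of the endoplasmic reticulum, pulled out by p97, stripped of sugars by NGLY1 and cut by DDI2 before it can act on proteasome genes. Its RNA, Nfe2l1, averaged 34.7 ± 2.66 CPM in normal cells. It averaged 64.9 ± 8.19, 99 ± 7.99 and 75.1 ± 7.66 CPM in CHIR-vacuolated, BCS-vacuolated and sorted cells, and 73.7 ± 4.48 and 80.3 ± 11.9 CPM in serum and serum-free vesicles. All 15 libraries outside the normal group were above the normal ones, and Nfe2l1 rose in each group (0.91, 1.52, 1.12, 1.09 and 1.21 in the same order, each ± 0.14, adjusted p from 3.28e-08 to 8.85e-05), under all 16 alternatives. The core and cap genes, given above, fell in the same vesicles. Of the 10 genes listed around NFE2L1, 5 rose and 0 fell in serum vesicles, where 31.7% and 28.8% of all tested genes did. In serum-free vesicles 3 rose and 3 fell, near the shares of all tested genes (30.2% and 27.5%). In CHIR-vacuolated, BCS-vacuolated and sorted cells 1, 4 and 3 rose and 0, 3 and 1 fell, beside 4.49, 11.2 and 14.4% of all tested genes that rose and 3.13, 9.51 and 11.5% that fell. Ngly1 fell in BCS-vacuolated (-0.57) and sorted cells (-0.44) and rose in serum-free vesicles (0.53), and Ddi2 fell in BCS-vacuolated cells (-0.45) and serum-free vesicles (-0.64). Syvn1 and Sel1l, subunits of the ligase that marks NFE2L1 for degradation, rose in serum vesicles by 1.03 and 0.75, and the Syvn1 call was lost when reads of both strands were counted (adjusted p = 0.751). The calls of Ngly1 passed in 14 (BCS) and 8 (sorted) of 16 alternatives and that of Ddi2 with BCS in 11.

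The last list holds genes of interferon signalling and antigen presentation, the setting in which PA28 and the immunoproteasome are best known. Of 9 tested, 5 rose and 0 fell in serum vesicles, where 31.7% of all tested genes rose and 28.8% fell, and 6 rose and 2 fell in serum-free vesicles, where 30.2% rose and 27.5% fell. In CHIR-vacuolated, BCS-vacuolated and sorted cells 2, 3 and 3 rose and 1, 1 and 0 fell, beside 4.49, 11.2 and 14.4% of all tested genes that rose and 3.13, 9.51 and 11.5% that fell. Stat2, an interferon transcription factor, averaged 5.79 ± 1.06 CPM in normal cells and 31.9 ± 3.66 and 26.6 ± 2.49 CPM in vesicles, and rose in all 5 groups by 0.86 to 2.47. Tapbp, the tapasin of the peptide-loading complex, rose in vesicles by 2.30 and 2.01 (adjusted p = 3.29e-10 and 3.56e-09), and Irf1 by 2.53 and 1.28. Tap1, the peptide transporter subunit, rose in BCS-vacuolated (0.99) and sorted cells (0.66) and fell in serum-free vesicles (-0.85). The Tap1 call in sorted cells passed in 9 of 16 alternatives and the Stat2 call in CHIR-vacuolated cells in 13. Blood and immune markers summed to 0.461 to 5.83 CPM in all libraries, and the leukocyte marker Ptprc was at 0 counts in 5 groups and had 1 count in sorted cells.

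**Figure D5:**
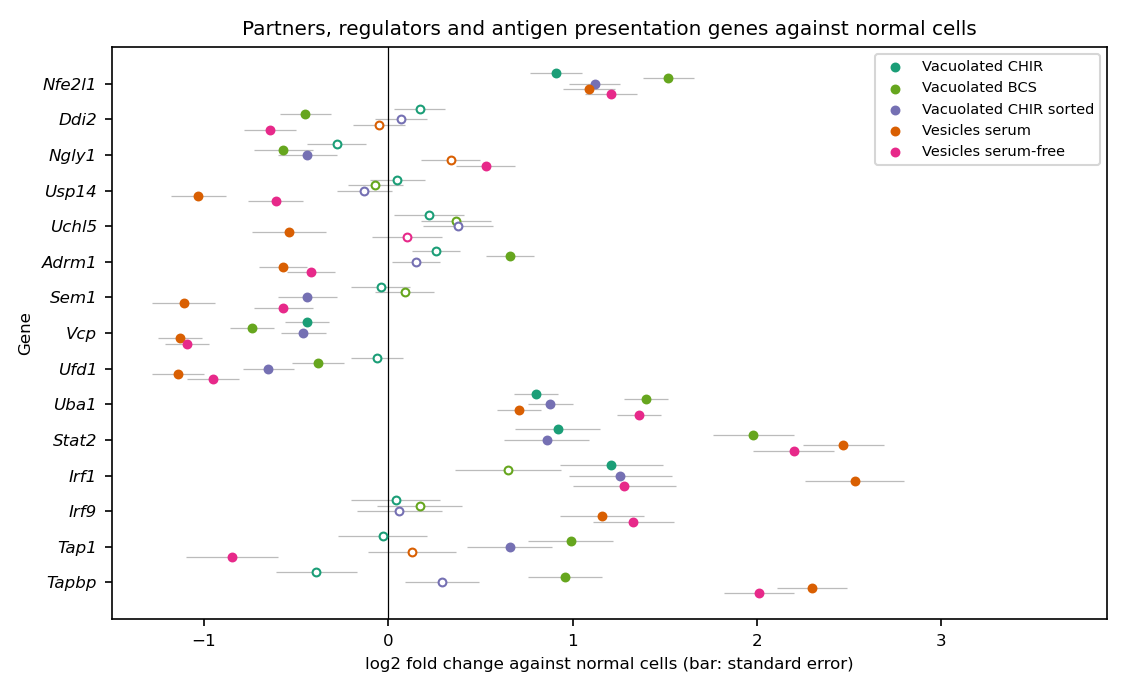
Log2 fold change against normal cells, with SE, of 15 genes in the 5 other groups. They are proteasome partners, regulators, and genes of interferon signalling and antigen presentation. Filled points passed the test and open points did not: Nfe2l1, Uba1 and Stat2 lie right of 0 in every group, and Vcp left of 0 in every group.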

How the data were processed

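Total RNA of 18 libraries (6 groups of 3) was measured by rRNA-depleted, directional RNA-seq. The authors deposited gene counts per strand; per the submitters' processing notes the tools were bcl2fastq, Trimmomatic 0.38 and STAR 2.6.1 with the rn6 build, and the counting annotation is not given in the sources used here. The deposited counts on the gene's strand were tested in R 4.3.3 with edgeR 4.0.16: filterByExpr (minimum count 10), TMM scaling, glmQLFit (robust) with 1 mean per group over all 18 libraries (12 residual degrees of freedom) and glmQLFTest, adjusted by Benjamini-Hochberg over 11503 of 28695 genes (threshold 0.05). The SE is the absolute log2 fold change divided by the square root of F. The common biological coefficient of variation was 16.1%. Total counts of 4050722 to 12074939 a library limit the precision, and the count limit covers counting error only. Replicates differed by more than sampling noise (chi-square per degree of freedom at least 2.89). DESeq2 1.42.0 and 15 other alternatives were run for each of 9 comparisons. Same-numbered replicates were not taken as pairs, since the labels do not say that a replicate number marks a shared culture. No comparison had a correlation over 0.1 in every same-numbered pair. Some passages did match by number. Replicates 1 and 3 were at passages 37 and 51 in both normal and CHIR-vacuolated cells, and replicates 1 and 2 at 32 and 35 in both vesicle groups. On simulated data for serum vesicles against normal cells, the test recovered 42% of genes changed 1.5-fold and 88% of those changed 2-fold, and called 11 of 11303 unchanged genes. The simulation changed 50 well-covered genes at each fold, where 28.8% of all tested genes fell and 31.7% rose in the data. The rates therefore need not hold for these data or for genes with few counts.

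The members and gene lists were chosen with earlier results of these data known. Values by library are given for 17 genes picked by role and for the 4 highest and 4 lowest passing genes without overlap in each comparison with normal cells (2 and 2 in the other comparisons), and of the outside lists the 3 smallest adjusted p-values; further genes were named after their values were seen. Of the outside lists, 2 genes are not reported here and were left out of the counts.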

Additional observations from a re-analysis of the deposited data

Results flagged for a closer look

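Psmd2 had opposite signs between groups against normal cells, higher in sorted vacuolated cells and lower in BCS-vacuolated cells and serum-free vesicles. Each pair in this section was picked by such opposite calls against the same normal libraries, so a direct test was likely to pass. The rise of Psmd2 in sorted cells did not pass without sorted replicate 3 (adjusted p = 0.0508). The direct tests gave sorted cells 0.95 above BCS-vacuolated cells (adjusted p = 7.21e-06, edgeR quasi-likelihood test) and 0.88 above serum-free vesicles (adjusted p = 2.29e-06) on the log2 scale, with all 3 sorted libraries above all 3 libraries of each other group.

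Psme2 was lower than normal in the 3 vacuolated groups and higher in both kinds of vesicle. The 3 decreases no longer passed without normal replicate 1 (adjusted p = 0.0672, 0.0971 and 0.0614). Serum vesicles stood above CHIR-vacuolated, BCS-vacuolated and sorted cells by 1.76 (adjusted p = 3.53e-07), 1.59 (adjusted p = 1.43e-06) and 1.63 (adjusted p = 1.02e-06). Serum-free vesicles stood above the same groups by 1.71 (adjusted p = 5.82e-07), 1.54 (adjusted p = 2.32e-06) and 1.58 (adjusted p = 1.56e-06). Each vesicle library exceeded each vacuolated library.

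Psme4 was higher than normal in sorted cells and lower in vesicles. Its rise in sorted cells did not pass without normal replicate 1 (adjusted p = 0.181) and was lost under other alternatives too. Sorted cells stood above serum vesicles by 0.65 (adjusted p = 1.18e-05) and above serum-free vesicles by 0.74 (adjusted p = 1.99e-06), again without overlap.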

How the results depend on the processing

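Of 1337 values of named genes under the alternatives, 1214 kept their direction and passed, 123 no longer passed and 0 reversed. Taken by pairs of a named gene and a comparison, 52 of 84 passed under every alternative. Of 144 counts of passing genes, 116 stayed within 1.5 times the reported count. For CHIR-vacuolated against normal cells (3 genes) the library totals without the 2 most abundant genes gave 6, leaving out the mitochondrial genes too gave 5, DESeq2 gave 5 and the 2 groups fitted alone 8. For serum-free against serum vesicles (12) the totals gave 7 and the 2 groups alone 1. For CHIR- against BCS-vacuolated cells (7) no filter gave 3 and the 2 groups alone 4. The cause was not tested. Leaving out 1 library gave 0 to 2 genes for CHIR-vacuolated cells, 5 to 10 for BCS-vacuolated cells, 12 to 19 for sorted cells, 38 to 40 for serum vesicles and 33 to 39 for serum-free vesicles against normal cells. It gave 3 to 13 between the vesicles, 7 to 13 between sorted and unsorted cells, 1 to 5 between CHIR and BCS, and 38 to 41 for serum vesicles against CHIR-vacuolated cells. With the replicate number as a block the counts were 3, 13, 20, 40 and 36 against normal cells in the order above, and 10, 13, 5 and 39 in the other 4 comparisons, and passage as a covariate left the counts within 1.5 times. In BCS-vacuolated against normal cells each of the 3 libraries correlated best with its own number, a hint from the data and not from the design. Scaling by the totals moved the median of all tested genes to 0.18 in serum vesicles against normal cells, 0.23 against CHIR-vacuolated cells and -0.16 between the vesicles. Depth limits Psmb8, Psmb9, Psmb10, Psmc5, Psmd10 and Psmf1.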
